A study of Mus musculus with 9 samples.

Results

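The core genes of the circadian clock were followed in the gastrocnemius, a calf muscle, of 9 mice whose hind legs had carried their normal load, had carried none, or had been loaded again. The genes were chosen by name: Arntl (also called Bmal1), Clock, Per1, Per2, Per3, Cry1, Nr1d1, Nr1d2 and Ciart. They are 9 of the 55487 genes in the count table, and all 9 were among the 14851 genes with enough counts to be tested. The mice were male, wild-type C57BL/6 per the labels, with no transgene or drug in any group, and their age is not given in the sources used here. The study's methods speak of female mice for the unloading procedure. Control was 4 mice in conventional cages. Unloading was 2 mice after 10 days with the tail tied to an overhead line, so that the hind legs did not touch the floor. Reloading was 3 mice that had been unloaded for the same time and then walked normally in a cage for 1 day. The unloaded mice also lived in another type of cage than the Control mice, and cage and load cannot be told apart. By the study's methods 2 mice shared a cage during unloading, so both Unloading mice may come from 1 cage. The labels do not say whether the samples of a group came from separate cages or days. The p-values therefore measure only the spread between these samples.

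The clock of mammalian cells is a loop in which a gene's product ends up repressing the gene itself. The proteins ARNTL and CLOCK pair, bind the E-box (CACGTG) and switch on Per, Cry, Nr1d and Ciart genes. PER and CRY proteins, and CIART, then repress the ARNTL and CLOCK pair, while NR1D1 and NR1D2 repress Arntl and RORA activates it through shared sites. Muscle has its own clock, which can be set by feeding and activity as well as by signals from the brain, and all these transcripts swing through the day. The mice were kept on a light and dark cycle, but the time of day at which the muscles were taken is not given in the sources used here. Each group was sampled at a single stage, so a clock that ran at another phase and genes that changed their mean level cannot be told apart. The RNA came from whole muscle, so fewer cells of a type and less RNA per cell cannot be told apart either.

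The upstream sequences of 3 members are shown because they carry the letters that tie these genes to the loop. Of the 9 members, 8 had an entry in the table of mouse promoters from RefSeq (GRCm38.p6), with 12 transcription starts between them. Per2 had no entry. The 250 bases before each start were searched on both strands for the E-box CACGTG, the E'-box CACGTT, the D-boxes TTATGTAA and TTACGTAA, the nuclear receptor site AGGTCA and the cAMP response element TGACGTCA. No 2 of the matches found overlap. Matches are printed in capitals, and a sequence on the other strand reads as its reverse complement. The windows lie at chr3:95882229-95882478 for Ciart, chr4:151044666-151044915 for Per3 and chr10:85185055-85185304 for Cry1, all on the minus strand, and end at the base before the start.
Ciart: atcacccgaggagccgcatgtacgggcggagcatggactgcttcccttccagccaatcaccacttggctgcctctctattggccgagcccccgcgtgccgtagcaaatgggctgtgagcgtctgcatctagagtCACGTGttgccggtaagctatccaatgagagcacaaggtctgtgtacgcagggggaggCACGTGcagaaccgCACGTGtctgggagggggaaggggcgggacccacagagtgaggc
Per3: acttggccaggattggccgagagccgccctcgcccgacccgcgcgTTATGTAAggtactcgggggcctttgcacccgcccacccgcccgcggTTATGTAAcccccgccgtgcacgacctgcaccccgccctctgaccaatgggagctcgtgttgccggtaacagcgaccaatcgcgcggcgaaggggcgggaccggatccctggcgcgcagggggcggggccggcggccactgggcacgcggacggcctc
Cry1: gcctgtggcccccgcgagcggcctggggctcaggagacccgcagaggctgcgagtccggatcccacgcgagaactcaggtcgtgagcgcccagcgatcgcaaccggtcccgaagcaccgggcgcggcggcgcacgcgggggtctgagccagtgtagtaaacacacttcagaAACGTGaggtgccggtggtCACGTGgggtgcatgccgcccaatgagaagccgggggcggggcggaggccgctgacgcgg

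Ciart held 3 E-boxes, at positions -116, -58 and -44 counted from the start. Among all 32851 windows of the table, 6.02% held an E-box and 0.0609% held 3 or more. Per3 held 2 copies of TTATGTAA, at -205 and -158, the letters bound by the DBP, TEF and HLF activators and by the repressor NFIL3. That D-box stood in 0.819% of windows, and 2 or more copies stood in 0.0183%. Cry1 held an E'-box at -79, read on the other strand, and an E-box at -60. The E'-box stood in 3.85% of windows. Per1 held an E-box at -166 and the nuclear receptor site at -137 before the first of its 2 starts, which lies inside the Ensembl gene. Nr1d1 held an E'-box at -28, Nr1d2 the nuclear receptor site at -77 and Clock the same site at -119 of its start 3, where 14.0% of windows held that site. The windows of Arntl had no match, nor did any member for TTACGTAA or the cAMP response element, found in 0.113% and 1.55% of windows, which says only that those letters are not in these windows.

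**Figure D1:**
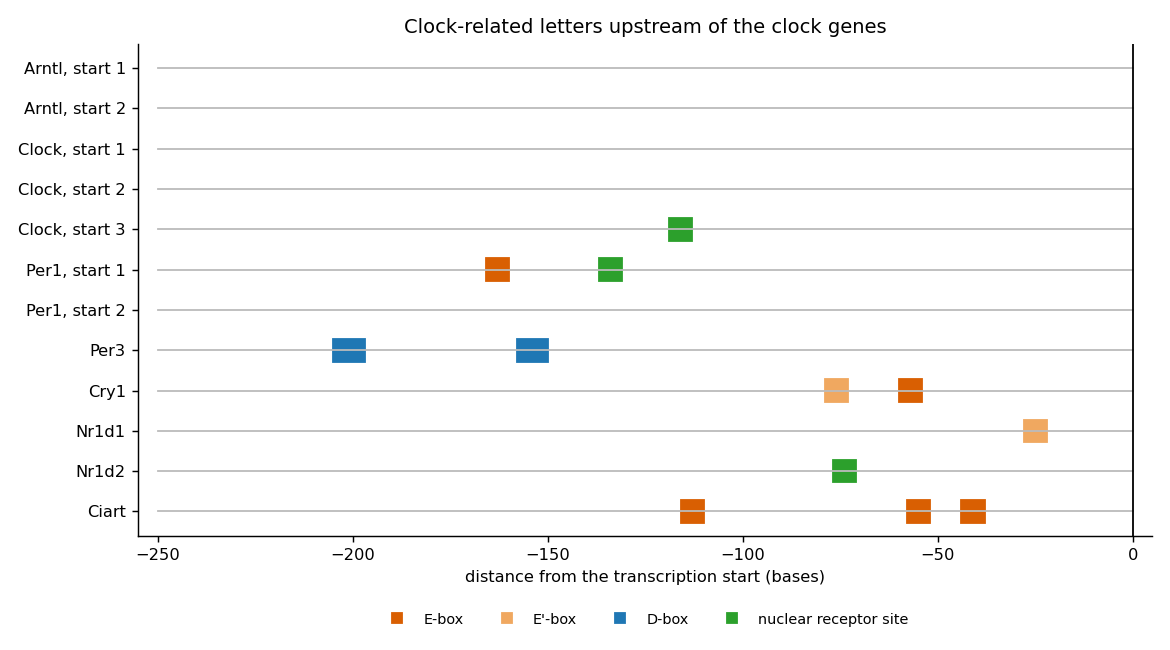
Matches to the searched letters in the 250 bases before each RefSeq start of 8 clock genes, by distance from the start in bases. Each row is 1 transcription start and each coloured block 1 match, with the 3 E-boxes of Ciart and the 2 D-boxes of Per3 as the rows with a repeated motif.

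The libraries held 9252443 to 19612101 read pairs in genes. Before the scaling described next, 1 pair stood for 0.0510 to 0.108 counts per 1000000 (CPM). Libraries were scaled by TMM (trimmed mean of M-values), which assumes that most genes do not change, with factors of 0.928 to 0.960 for Control and Unloading and of 1.11 to 1.13 for Reloading. With library totals alone, the middle log2 fold change over the tested genes moved from 0.03 to 0.27 for Reloading against Unloading and from 0.01 to 0.25 for Reloading against Control. The 5 muscle fibre markers Acta1, Ckm, Mylpf, Tnnt3 and Myh4 were abundant in all 9 libraries. Keratinocyte markers, 5 keratins, summed to 233 CPM in Control 2 and 116 CPM in Reloading 1, against 2.79 and 2.84 CPM in Unloading and lowest sums of 3.00 CPM in Control and 2.17 CPM in Reloading. Results are given without those 2 libraries where that changes a call.

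Members differed at both steps of the experiment. After unloading, Per1, Per3 and Ciart were 1.97, 1.42 and 1.97 times their Control level and no member was lower. After 1 day of reloading, Ciart, Per3, Clock and Nr1d2 were lower than in Unloading and Arntl was higher. Compared with Control, reloaded muscle had more Per1, Arntl, Per2 and Cry1 and less Nr1d2. Calls with Reloading were common among all tested genes, so these counts alone do not set the members apart. Of all tested genes, 18.5% were higher and 19.0% lower than in Unloading, and 22.1% and 21.3% than in Control. After unloading, 4.40% of all tested genes were higher than in Control and 5.50% lower. Changes were tested by edgeR's quasi-likelihood test with Benjamini-Hochberg adjustment over all tested genes, at an adjusted p under 0.05. The 2 comparisons with Unloading share its libraries, as the 2 with Control share theirs, so that their values are not independent of each other.

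For Unloading against Control, 3 of 9 members were higher and 0 lower, where 4.40% of all tested genes were higher and 5.50% lower. The 0 members lower stayed at 0 by DESeq2 and in every alternative, and 0 members had a negative fold change at an unadjusted p under 0.05. The median log2 fold change was 0.14 for the members and -0.00 for all genes. Library totals gave the same 3 members. Without Unloading 1 none of the 3 passed (adjusted p 0.0635 to 0.141 by edgeR's quasi-likelihood test), and the number of all genes called went from 1470 to 121. The CPM of the groups did not overlap for 3 members, all higher, where 16.4% of all genes stood apart and higher and 16.6% lower. For Reloading against Unloading, 1 member was higher and 4 lower, against 18.5% and 19.0% of all genes, with a median of -0.20 against 0.03. The CPM did not overlap for 7 members, 2 higher and 5 lower, where 31.0% of all genes stood apart and higher and 29.0% lower. With library totals 4 members were higher and 1 lower, and the share of all called genes that were higher went from 49.3% to 82.8%. For Reloading against Control, 4 members were higher and 1 lower, against 22.1% and 21.3%, with a median of 0.27 against 0.01. The CPM did not overlap for 4 members, 3 higher and 1 lower, where 24.2% of all genes stood apart and higher and 22.7% lower. With library totals 6 were higher and 1 lower, and the share of called genes that were higher went from 50.9% to 80.2%.

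**Figure D2:**
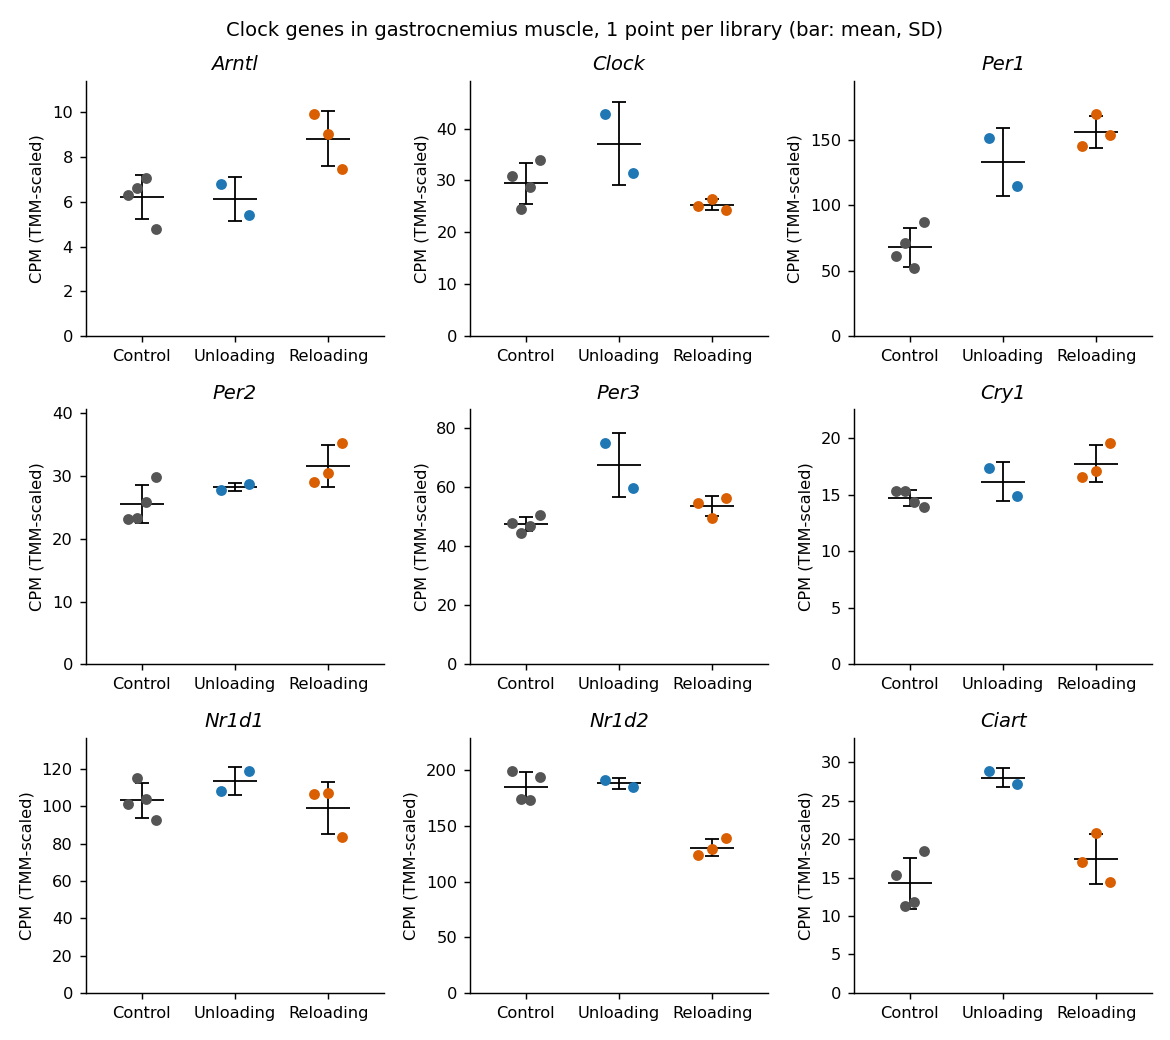
TMM-scaled CPM of the 9 clock genes, 1 point per library for 4 Control, 2 Unloading and 3 Reloading mice, with the group mean and SD as bars and each axis starting at 0. Both Unloading points of Ciart, 28.8 and 27.1 CPM, lie above the other 7, and the 3 Reloading points of Nr1d2 lie below the other 6.

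**Figure D3:**
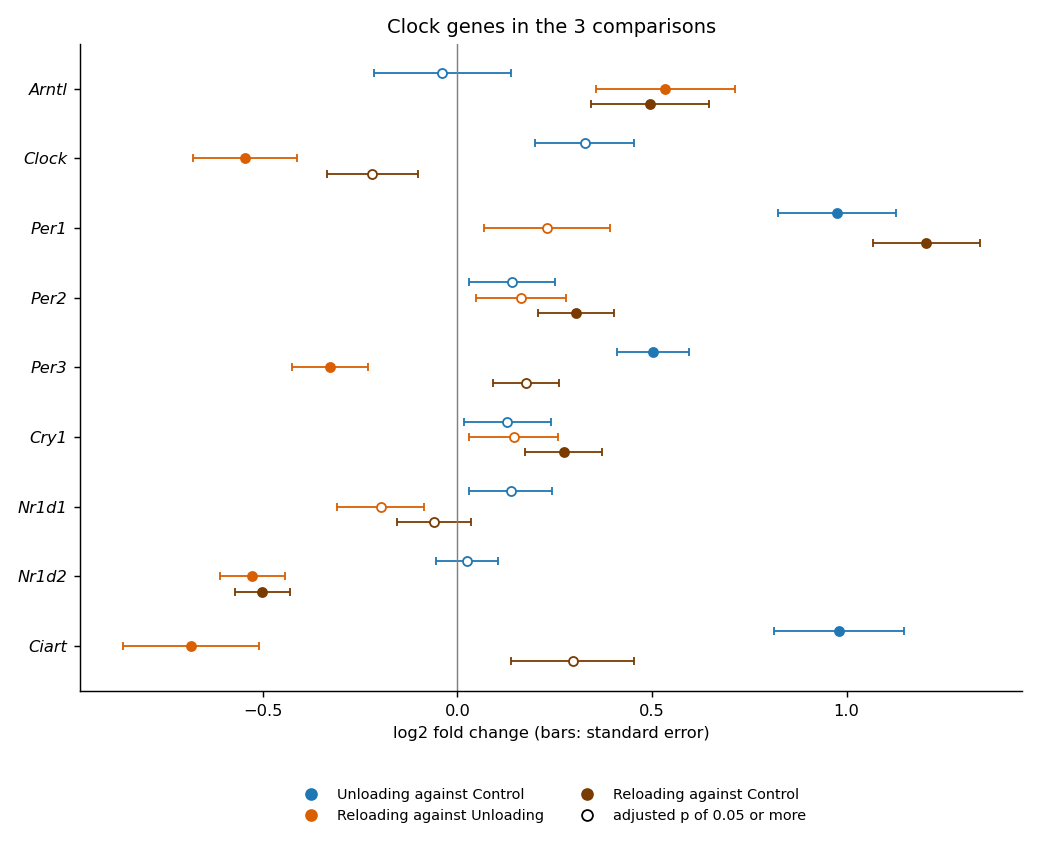
Log2 fold change with its SE for the 9 clock genes in the 3 comparisons, on TMM scaling. Filled points passed the adjusted p of 0.05, and of the 3 comparisons only Unloading against Control has no filled point below 0.

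The 2 activators, Arntl and Clock, moved apart on reloading. Arntl (chr7:113207465-113314126, plus strand) was the least abundant member. Its CPM were 6.32, 6.63, 7.07 and 4.80 in Control, 6.81 and 5.41 in Unloading and 9.91, 9.04 and 7.48 in Reloading. All 3 Reloading libraries lay above the 6 others, while Control and Unloading overlapped. Arntl was higher in Reloading than in Unloading by 0.53 on the log2 scale (SE 0.18, adjusted p 0.0286), or 1.45-fold, and higher than in Control by 0.50 (SE 0.15, adjusted p 0.0156). Between Unloading and Control the difference was -0.04 (SE 0.18, adjusted p 0.917). These rest on 56 to 125 read pairs per library, and the call of Reloading against Unloading was lost without Reloading 1 (0.45, adjusted p 0.0918), Reloading 2 (0.51, adjusted p 0.0717) or Unloading 2 (0.36, adjusted p 0.256), with DESeq2 (0.51, adjusted p 0.0899), and without both libraries that held keratins (0.44, adjusted p 0.103). The call against Control was lost without Reloading 1 (0.41, adjusted p 0.0733), Reloading 2 (0.47, adjusted p 0.0503) or both libraries with keratins (0.44, adjusted p 0.0827).

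Clock (chr5:76209868-76304792, minus strand), the partner of ARNTL, was lower after reloading. Its CPM were 30.8, 24.5, 28.7 and 33.9 in Control, 42.7 and 31.4 in Unloading and 25.1, 26.4 and 24.3 in Reloading. The Reloading libraries lay below both Unloading libraries but among the Control values. Clock fell by 0.55 on the log2 scale from Unloading to Reloading (SE 0.13, adjusted p 0.00506). It lay 0.33 above Control in Unloading (SE 0.13, adjusted p 0.116) and differed by -0.22 between Reloading and Control (SE 0.12, adjusted p 0.146). The fall rested on Unloading 1, the highest of the 9 libraries: without it the difference was -0.32 (adjusted p 0.121). With library totals it was -0.30 (adjusted p 0.0889), and the difference to Control turned to 0.02. With no filter on low counts, Clock was called higher in Unloading than in Control (0.36, adjusted p 0.0133), and without Unloading 2 that difference was 0.54. Without Control 2, Clock was called lower in Reloading than in Control (-0.30, adjusted p 0.0375).

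Per1 (chr11:69095217-69109960, plus strand) was higher in unloaded and in reloaded muscle than in Control, and its difference between Reloading and Control was the largest of the 9 members. PER1 is a repressor of the loop, and its gene also answers directly to cAMP, calcium and glucocorticoid signals. The CPM were 61.0, 70.9, 51.8 and 87.1 in Control, 152 and 115 in Unloading and 145, 170 and 154 in Reloading. Every Unloading and Reloading library lay above every Control library, and the 2 manipulated groups overlapped. Per1 was higher in Unloading than in Control by 0.97 on the log2 scale (SE 0.15, adjusted p 0.00196), or 1.97-fold, and higher in Reloading than in Control by 1.20 (SE 0.14, adjusted p 5.96e-06), or 2.31-fold. Reloading and Unloading differed by 0.23 (SE 0.16, adjusted p 0.282). The rise in Unloading missed the threshold without Unloading 1 (0.77, adjusted p 0.0678). The rise in Reloading against Control passed in all 18 alternatives, and with library totals Per1 was also higher in Reloading than in Unloading (0.48, adjusted p 0.0260).

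Per3 (chr4:151003652-151044665, minus strand) was higher in unloaded muscle and lower again after reloading. PER3 is a further PER protein, which the core loop can run without. Its CPM were 47.6, 44.5, 46.9 and 50.4 in Control, 74.9 and 59.6 in Unloading and 54.6, 49.6 and 56.2 in Reloading. Both Unloading libraries lay above all others, and Reloading overlapped with Control through 1 library, Reloading 2. Per3 rose by 0.50 on the log2 scale in Unloading (SE 0.09, adjusted p 0.00460) and fell by 0.33 from there to Reloading (SE 0.10, adjusted p 0.0167). Against Control, Reloading differed by 0.18 (SE 0.08, adjusted p 0.107). With only the groups compared that difference was 0.19 and passed (adjusted p 0.0442). It was 0.20 and also passed with a replicate block by the sample descriptions (adjusted p 0.0405), whose numbers were not shown to pair samples. Without Unloading 1 the rise was 0.33 (adjusted p 0.141) and the fall -0.16 (adjusted p 0.280), and without Reloading 2 the fall was -0.28 (adjusted p 0.0655). With library totals the fall was -0.08 (adjusted p 0.533), and Reloading was then above Control by 0.42 (adjusted p 0.000847).

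Per2 and Cry1, the 2 members that together with PER1 and CRY2 form the repressor complex of the core loop, showed smaller differences. Per2 (chr1:91415982-91459324, minus strand) had 23.2, 23.4, 25.9 and 29.8 CPM in Control, 27.8 and 28.7 in Unloading and 29.0, 30.4 and 35.3 in Reloading. The 3 Reloading libraries lay above both Unloading libraries but overlapped with Control through Control 4. Per2 was higher in Reloading than in Control by 0.30 on the log2 scale (SE 0.10, adjusted p 0.0201), and the other differences were 0.16 against Unloading (SE 0.11, adjusted p 0.282) and 0.14 between Unloading and Control (SE 0.11, adjusted p 0.455). That call was lost without Control 1 (0.27, adjusted p 0.0546), Control 2 (0.26, adjusted p 0.0596) or Reloading 3 (0.22, adjusted p 0.120). With library totals Per2 was higher in Reloading than in Unloading (0.41, adjusted p 0.00750).

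Cry1 (chr10:85131700-85185064, minus strand) encodes the repressor that closes the loop late in the cycle. Its CPM were 15.3, 15.3, 14.4 and 13.9 in Control, 17.4 and 14.9 in Unloading and 16.6, 17.1 and 19.6 in Reloading. The Reloading libraries lay above all Control libraries and overlapped with Unloading. Cry1 was higher in Reloading than in Control by 0.27 (SE 0.10, adjusted p 0.0352), by 0.14 than in Unloading (SE 0.11, adjusted p 0.344), and by 0.13 in Unloading than in Control (SE 0.11, adjusted p 0.502). The call against Control was lost without Control 3 (0.25, adjusted p 0.0800), Control 4 (0.25, adjusted p 0.0835), Reloading 2 (0.30, adjusted p 0.0546) or Reloading 3 (0.20, adjusted p 0.168), with DESeq2 (0.26, adjusted p 0.128) and with no filter on low counts (0.28, adjusted p 0.0645). With library totals Cry1 was higher in Reloading than in Unloading (0.39, adjusted p 0.0146).

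The paired receptors Nr1d1 and Nr1d2, known as REV-ERB alpha and beta, repress Arntl. Nr1d2 (chr14:18204054-18239127, minus strand) was lower in reloaded muscle. Its CPM were 199, 174, 173 and 194 in Control, 192 and 185 in Unloading and 124, 129 and 139 in Reloading. The Reloading libraries lay below the 6 others (at most 139 against at least 173 CPM), while Control and Unloading overlapped. Nr1d2 fell by 0.53 on the log2 scale from Unloading (SE 0.08, adjusted p 0.000196) and was lower than in Control, with a difference of -0.50 (SE 0.07, adjusted p 5.14e-05). Both calls passed in all 18 alternatives, and with library totals the differences were -0.28 (adjusted p 0.0133) and -0.26 (adjusted p 0.00596). Unloading and Control differed by 0.03 (SE 0.08, adjusted p 0.875).

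Nr1d1 (chr11:98767932-98775333, minus strand) passed in no comparison. Its CPM were 101, 115, 104 and 92.4 in Control, 108 and 119 in Unloading and 107, 107 and 83.2 in Reloading. The Reloading libraries lay below both Unloading libraries, with Reloading 3 the lowest of all 9 and the other 2 close under Unloading 1. The log2 differences were -0.20 for Reloading against Unloading (SE 0.11, adjusted p 0.181), 0.14 for Unloading against Control (SE 0.11, adjusted p 0.450) and -0.06 for Reloading against Control (SE 0.09, adjusted p 0.639). With library totals the first and last of these turned to 0.05 and 0.18. Nr1d1 shares 263 exon bases, 8.55% of its exon length, with Thra on the opposite strand, a thyroid hormone receptor gene with 660 to 1591 counts per library, and since pairs were counted without strand, reads in the shared bases cannot be told apart. Arntl shares 33 bases with Gm45355, which had 0 counts in every library.

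Ciart (chr3:95878503-95882251, minus strand), also known as Chrono, encodes a repressor that binds ARNTL. Its CPM were 15.3, 11.4, 11.8 and 18.4 in Control, 28.8 and 27.1 in Unloading and 17.0, 20.8 and 14.4 in Reloading. Both Unloading libraries lay above the other 7, and Control and Reloading overlapped. Ciart was higher in Unloading than in Control by 0.98 on the log2 scale (SE 0.17, adjusted p 0.00317), or 1.97-fold. From there it fell by 0.68 to Reloading (SE 0.17, adjusted p 0.00655). Reloading and Control differed by 0.30 (SE 0.16, adjusted p 0.145). Without Unloading 1 the rise was of like size but missed the threshold (0.94, adjusted p 0.0635), and with library totals the fall was -0.44 (adjusted p 0.0587). Without Control 4, the highest Control library, Ciart was also called higher in Reloading than in Control (0.45, adjusted p 0.0233), as it was with library totals (0.54, adjusted p 0.0108) and with no filter on low counts (0.31, adjusted p 0.0345).

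Levels were compared between genes only per exon length, in transcripts per 1000000 (TPM), as means over all 9 libraries. The order was Nr1d1 with 92.0 TPM, Nr1d2 with 82.9, Per1 with 56.2, Ciart with 22.1, Per3 with 15.3, Per2 with 13.3, Cry1 with 13.3, Clock with 5.86 and Arntl with 2.62. The ranges of the first 3 over the libraries overlapped, as did those of Ciart, Per3, Per2 and Cry1. Clock, with at most 8.12 TPM, lay below the lowest value of those 4, 9.72 TPM, and Arntl, with at most 4.25 TPM, lay just below the lowest value of Clock, 4.35 TPM. Clock and Arntl were thus the least abundant of the 9 members per exon length in each of these libraries. The lengths are the summed exons of a gene, 13727 bases for Clock and 7523 for Arntl. They need not be the length of the transcript expressed, so this order is approximate.

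Ratios of 2 genes within a library do not depend on how libraries are scaled. The log2 ratio of Arntl to Nr1d1 per base was -5.56 to -5.17 in the 4 Control libraries, -5.28 and -5.75 in Unloading and -4.86 to -4.72 in Reloading. All Reloading libraries thus held more Arntl for their Nr1d1 than the 6 others, whose values overlapped. The ratio of Arntl to Ciart was -3.68 to -2.47 in Control, -3.82 and -4.06 in Unloading and -2.94 to -2.51 in Reloading, so that Unloading lay below all others. Arntl to Per3 was -3.04 to -2.38 in Control, -3.11 and -3.11 in Unloading and -2.56 to -2.10 in Reloading, with Unloading again the lowest. Per1 to Per3 was 0.92 to 1.56 in Control, 1.79 and 1.72 in Unloading and 2.18 to 2.54 in Reloading, and here no 2 groups overlapped. Per1 and Per3, which both rose with unloading, therefore stood in another proportion after reloading than before it. These ratios are descriptions with no test, and they were chosen with the genes' behaviour known.

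**Figure D4:**
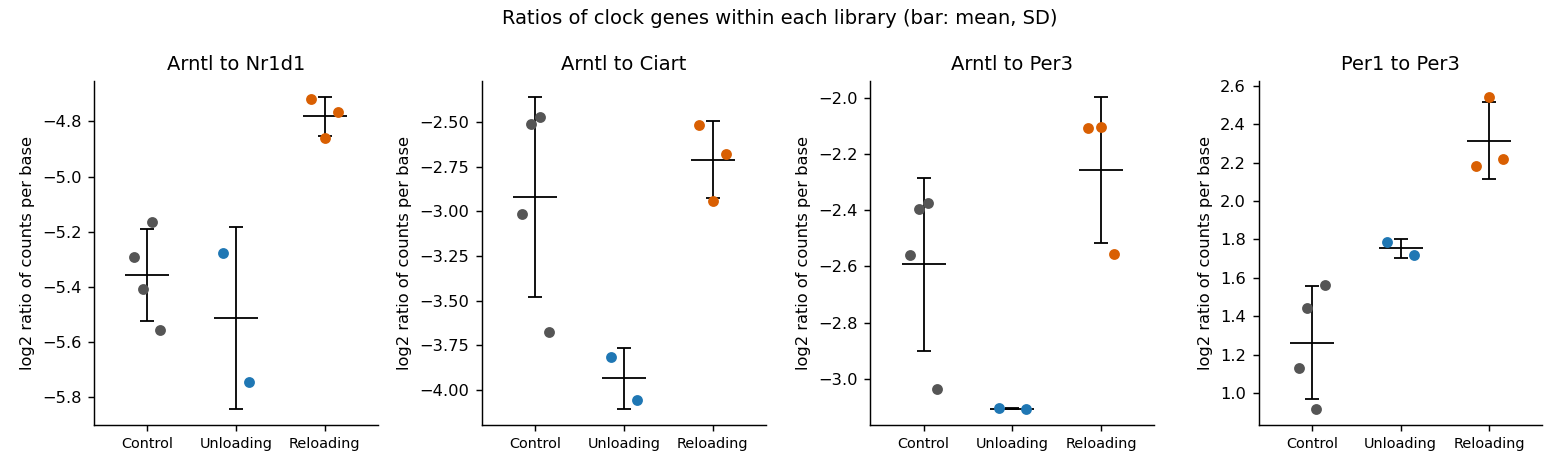
Log2 ratio of 2 clock genes per base within each library, 1 point per library with the group mean and SD, for 4 Control, 2 Unloading and 3 Reloading mice. The 3 Reloading points of Arntl to Nr1d1 lie at -4.86 or higher and the 6 others at -5.17 or lower, and for Per1 to Per3 the 3 groups do not overlap.

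A further 21 genes of the clock and its outputs were taken as a list, of which 18 were tested. Npas2, which can stand in for CLOCK, Rorb and Fbxl21 had at most 5 counts in any library and were left out by the filter. For Unloading against Control 5 of the 18 were higher and 2 lower, for Reloading against Unloading 4 were higher and 8 lower, and for Reloading against Control 4 were higher and 4 lower, with medians of 0.14, -0.21 and -0.03 on the log2 scale. Of all tested genes, 4.40% were higher and 5.50% lower in the first comparison, 18.5% and 19.0% in the second and 22.1% and 21.3% in the third. Arntl2, Btrc and Fbxw11 passed in none of the 3, with differences of -0.11 to 0.19. With library totals these counts were 4 and 2, 5 and 2, and 9 and 2. Without Unloading 1 the first was 1 and 0 and the second 2 and 6.

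Rora, which encodes a receptor that activates Arntl, was higher in Unloading than in Control and lower in Reloading than in either. Rora had 128 to 187 CPM in the 4 Control libraries, 208 and 227 CPM with unloading and 88.7 to 109 CPM after reloading. The log2 difference was 0.40 (adjusted p 0.0494) for Unloading against Control, -1.12 (adjusted p 1.32e-05) for Reloading against Unloading and -0.72 (adjusted p 0.000122) for Reloading against Control. The Reloading libraries lay below all others. The rise of Rora in Unloading stood close to the threshold. It missed it with library totals (0.40, adjusted p 0.0523), with the robust fit (0.40, adjusted p 0.0850) and with only the groups compared (0.40, adjusted p 0.0530). It also missed it without Control 2, Control 3, Reloading 2 or Reloading 3 (0.30 to 0.40, adjusted p 0.0518 to 0.0980), and without Unloading 1 (0.34) or Unloading 2 (0.47).

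The repressors outside the member list also split. Bhlhe40, which competes for E-boxes, was 0.54 higher in Unloading than in Control (adjusted p 0.00319) on the log2 scale and fell by 0.63 from there to Reloading (adjusted p 0.000153). Its relative Bhlhe41 was lower at both steps, by -0.42 (adjusted p 0.0282) and -0.49 (adjusted p 0.00394), from 106 ± 6.67 CPM (SD, n = 4) in Control to 56.2 ± 5.38 (SD, n = 3) in Reloading. Cry2 was higher in Unloading by 0.31 (adjusted p 0.0386) and lower in Reloading than there by -0.32 (adjusted p 0.0125). Nfil3, the repressor at D-boxes, was higher in Reloading than in Unloading by 0.73 (adjusted p 0.00214) and than in Control by 0.91 (adjusted p 6.76e-05). Of the D-box activators, Tef fell by 0.40 (adjusted p 0.000382) and Hlf fell by 0.33 (adjusted p 0.0251) from Unloading to Reloading. Dbp differed by -0.23 and did not pass (adjusted p 0.0902). Reloading against Control gave -0.35 for Tef and -0.26 for Hlf (adjusted p 0.000166 and 0.0345), and Dbp did not pass (-0.12, adjusted p 0.260). There Tef lost its call with library totals (-0.12, adjusted p 0.0941). Hlf lost its call against Control in 10 of 18 alternatives, among them DESeq2 (-0.27, adjusted p 0.0614) and leaving out both libraries with keratins (-0.21, adjusted p 0.159). No D-box activator passed for Unloading against Control, where the differences were 0.04, 0.07 and 0.10 for Tef, Hlf and Dbp. The letters they bind are those printed for Per3. With library totals, the falls of Bhlhe41 (-0.24, adjusted p 0.110), Cry2 (-0.08, adjusted p 0.539), Tef (-0.15, adjusted p 0.0795) and Hlf (-0.08, adjusted p 0.553) from Unloading to Reloading missed the threshold. The rise of Cry2 was lost without Control 1, Control 3, Control 4, Reloading 2 or Unloading 1 (0.22 to 0.31, adjusted p 0.0544 to 0.380) and its fall without Reloading 3 (-0.27, adjusted p 0.0504) or Unloading 1 (-0.24, adjusted p 0.125). The lower value of Bhlhe41 in Unloading was lost without Control 1 (-0.38, adjusted p 0.0571) or Unloading 1 (-0.21, adjusted p 0.415), and its fall on reloading without Unloading 2 (-0.26, adjusted p 0.119). The fall of Hlf was lost without Reloading 1 (-0.32, adjusted p 0.0577), Reloading 2 (-0.33, adjusted p 0.0609) or Unloading 1 (-0.23, adjusted p 0.214). Without both libraries with keratins, Bhlhe41 in Unloading against Control (-0.42, adjusted p 0.0506) and Hlf in Reloading against Unloading (-0.32, adjusted p 0.0552) missed the threshold.

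The rest of the list was mainly enzymes that act on clock proteins. The kinases of PER went apart. Csnk1d was higher in Reloading than in Unloading by 0.39 (adjusted p 0.00146) and than in Control by 0.41 (adjusted p 0.000162). Csnk1e was 0.32 higher in Unloading than in Control (adjusted p 0.00860) and differed by -0.26 between Reloading and Unloading (adjusted p 0.0109). Gsk3b was higher in Unloading by 0.33 (adjusted p 0.0171). Usp2, a deubiquitinase, was lower in Reloading than in Unloading by -0.30 (adjusted p 0.0138). Wee1, a cell cycle kinase under E-box control, was higher in Reloading than in Control by 0.60 (adjusted p 0.00212), and Noct by 0.49 (adjusted p 0.0258). Wee1 was also higher in Reloading than in Unloading by 0.48 (adjusted p 0.0255), a call lost in 7 of 18 alternatives. Timeless, a replication protein at 2.47 to 8.22 CPM, was lower in Unloading than in Control by -1.03 (adjusted p 0.0290) and higher in Reloading than in Unloading by 0.81 (adjusted p 0.0396). With library totals Csnk1e (-0.01, adjusted p 0.918) and Usp2 (-0.06, adjusted p 0.623) no longer differed between Reloading and Unloading at the threshold. Calls that rested on single libraries were Csnk1e without Unloading 1 (0.34, adjusted p 0.0922) or, on reloading, Unloading 2 (-0.25, adjusted p 0.0596), Usp2 without Reloading 1, Unloading 1 or Unloading 2 (adjusted p 0.0531 to 0.0650), and Gsk3b without Control 3, Unloading 1 or Unloading 2 (adjusted p 0.0531 to 0.162). Noct missed the threshold without Control 1, Control 3, Reloading 2 or Reloading 3 (adjusted p 0.0671 to 0.112) and with the robust fit (0.49, adjusted p 0.111). Both calls of Timeless missed it without Unloading 1 (-0.94 and 0.72) or Unloading 2 (-1.15 and 0.91). The first call of Timeless was also lost without Control 3 and the second without Reloading 1 or Reloading 2 (adjusted p 0.0615 to 0.118). In all, the second call was lost in 8 of 18 alternatives, DESeq2 among them (0.79, adjusted p 0.0594). Without both libraries with keratins, Usp2 (-0.25, adjusted p 0.0598) and Timeless (0.68, adjusted p 0.126) missed it in Reloading against Unloading.

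**Figure D5:**
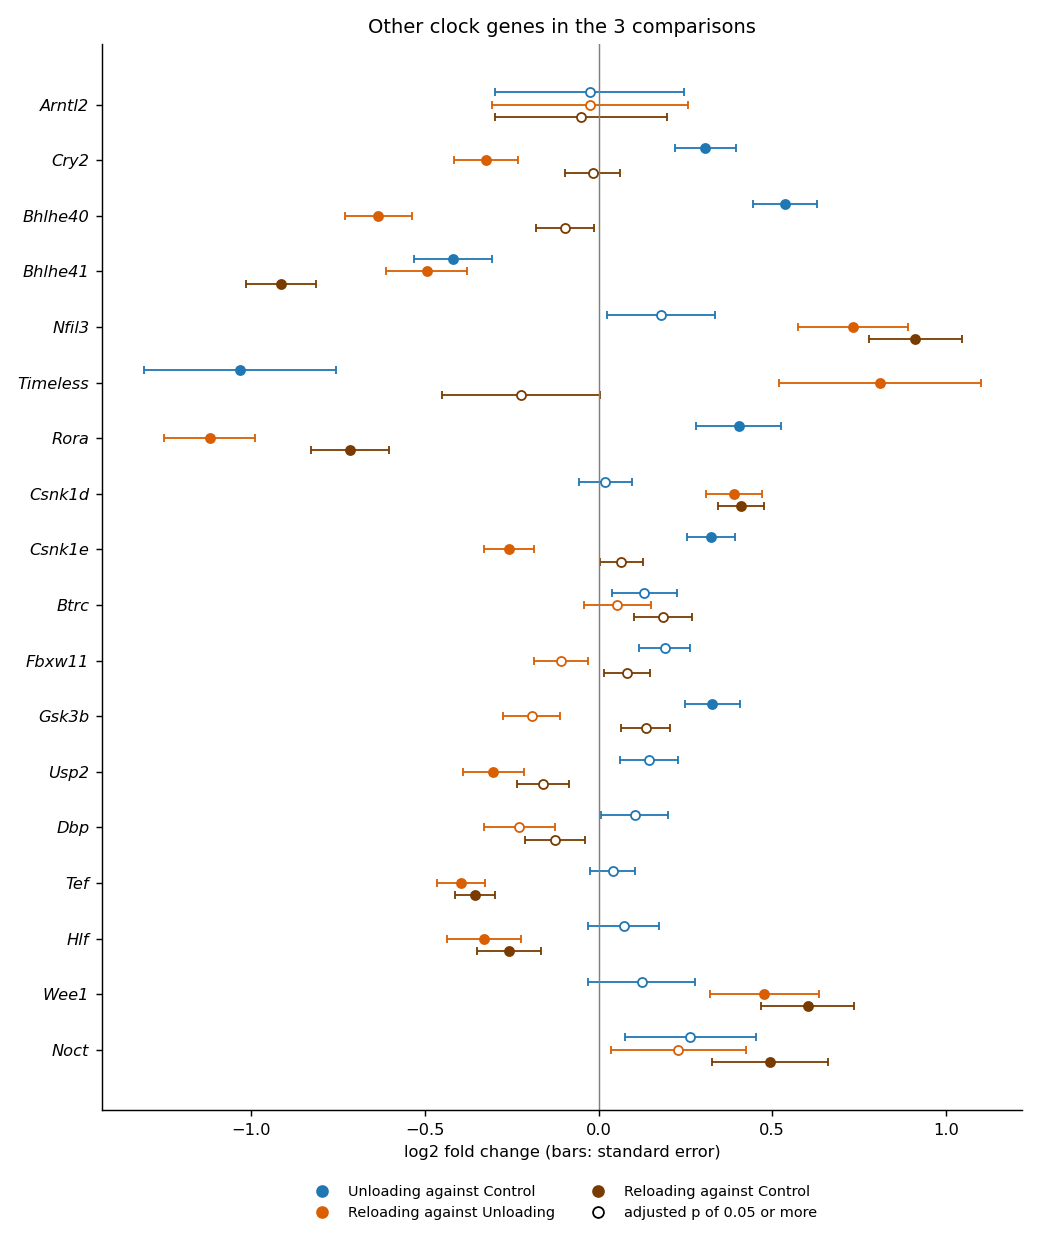
Log2 fold change with its SE for the 18 tested genes of the clock and its outputs outside the 9 members, on TMM scaling, with filled points past the adjusted p of 0.05. Between Reloading and Unloading 8 filled points lie below 0 and 4 above it, which library totals turned to 2 below and 5 above.

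Per1 is also induced directly by cAMP, calcium and glucocorticoid signals, so genes known to answer these were set beside it. Of the 4 cAMP and calcium responsive genes, Sik1, Nr4a1 and Fos were higher in Reloading than in Unloading, by 1.56, 0.62 and 2.20 on the log2 scale (adjusted p 2.51e-05, 0.000767 and 0.000524), and than in Control, by 1.41, 0.30 and 1.71. Crem did not pass in either, with -0.09 and 0.08. For Unloading against Control, where Per1 was 0.97 higher, the 4 differed by -0.48 to 0.17 and none passed edgeR's test or DESeq2, with 1 lower at an unadjusted p under 0.05. Nr4a1 missed the threshold against Control without Control 1, Control 2 or Reloading 2 (0.20 to 0.25, adjusted p 0.0537 to 0.143). Of the 5 glucocorticoid responsive genes, Fkbp5 was higher in Unloading than in Control by 0.97 (adjusted p 0.0396), with 27.1 to 71.3 CPM in Control and 75.6 and 94.0 CPM in Unloading. That call was lost with DESeq2 (0.98, adjusted p 0.172) and with the robust fit (0.97, adjusted p 0.218). It was also lost without any of Control 1, Control 2, Control 3 and Reloading 2 (adjusted p 0.0544 to 0.0898), and without both libraries with keratins (0.80, adjusted p 0.0678). Without Unloading 1 or Unloading 2, where the call was lost as well, the difference was 0.81 or 1.12. Fkbp5, Sgk1 and Klf9 were lower in Reloading than in Unloading, by -1.75, -0.75 and -0.96 (adjusted p 0.000413, 0.000309 and 4.03e-06), while Per1 was not. Against Control, where Per1 was 1.20 higher in Reloading, the 3 were also lower, by -0.78, -0.44 and -0.69 (adjusted p 0.0308, 0.00362 and 1.19e-05). There the call of Fkbp5 was lost in 8 of 18 alternatives, DESeq2 among them (-0.81, adjusted p 0.116). Sgk1 lost its call against Control with library totals (-0.20, adjusted p 0.124). Tsc22d3 and Zbtb16 passed in no comparison. The part of these signals in the level of Per1 was not tested.

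Markers of other cell types moved with reloading. The summed macrophage markers, 5 of 5 higher than in Unloading, went from 36.9 and 38.3 CPM in Unloading to between 98.5 and 111 in Reloading. Endothelial markers, 4 of 4 higher, went from 127 CPM in both Unloading libraries to between 211 and 278. Smooth muscle markers, 4 of 4 higher, went from 42.1 and 45.6 CPM to between 97.3 and 113. Muscle fibre markers, 4 of 5 lower, went from at least 140095 to at most 110611 CPM. Of the neutrophil markers only 2 of 4 were tested, and Ly6g had at most 2 counts in every library. Fibroblast markers were 1 higher and 2 lower, 1 of 3 adipocyte markers was higher, and no neutrophil or keratinocyte marker passed in the edgeR fit with TMM and the filter or in DESeq2, with 0 at an unadjusted p under 0.05 in either. With no filter on low counts 5 of 5 keratinocyte markers and 1 neutrophil marker were higher. For Unloading against Control, where Per1, Per3 and Ciart rose, no macrophage, smooth muscle, adipocyte, neutrophil or keratinocyte marker passed edgeR's test or DESeq2, with 1 macrophage and 2 keratinocyte markers lower at an unadjusted p under 0.05 in edgeR. With no filter on low counts 5 keratinocyte markers and 1 neutrophil marker were lower. Fibre and endothelial markers had 1 lower each, and fibroblast markers 2 higher and 1 lower. The part of these cells in the levels of the clock genes was not tested.

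The genes whose log2 CPM followed each member most closely over the 9 libraries were found among 9859 genes, as a description. Cd38 followed Arntl (r = 0.99), Zfp715 followed Clock (r = 0.96), Ist1 followed Per1 (r = 0.98), Bcorl1 followed Per2 (r = 0.95) and Srrm2 followed Per3 (r = 0.98). Herpud2 followed Cry1 (r = 0.97), Usf1 followed Nr1d1 (r = 0.92), Ppp1r3a followed Nr1d2 (r = 1.00) and Gm12940 followed Ciart (r = 0.94). Each of these is the highest of many values over only 9 libraries in 3 groups, which share the group differences and the scaling. Among all pairs of the members themselves, the lowest value was that of Arntl and Nr1d2 (r = -0.86) and the highest that of Per3 and Ciart (r = 0.80). Arntl had r = 0.04 with Nr1d1 and r = -0.51 with Clock.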

How the data were processed

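Polyadenylated RNA of 9 gastrocnemius muscles was sequenced by the authors, who aligned the reads with STAR 2.7.3a to GRCm38 and assigned pairs to genes by featureCounts 2.0.3 without regard to strand, on the Ensembl annotation named in the table's header. The methods describe single reads, whereas the labels and the table's header give pairs. The deposited count table holds unfiltered raw counts of 55487 genes, beside the summed length of their exons. The tables of the authors' DESeq2 comparisons were used only for gene identifiers and symbols. They also hold a mean signal per gene, which per the file headers is the deposited baseMean (counts over size factors), and the authors' fold changes and p-values, which were not used. Because some symbols were absent there, a table of gene names supplied the rest, so that 14846 of the tested genes had a symbol.

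Counts were fitted in R 4.3.3 with edgeR 4.0.16 (TMM factors, filterByExpr at a count of 10 and a total of 15, glmQLFit and glmQLFTest, two-sided), in a single fit of all 9 libraries with group as the only term. P-values were adjusted by Benjamini-Hochberg over all 14851 tested genes, with a threshold of 0.05. The SE of a log2 fold change was derived from the F statistic. CPM were TMM-scaled, log2 CPM used a prior count of 2, and TPM were computed from counts and exon lengths. The scripts were tested on simulated data.

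The members, the gene lists, the ratios and the named genes were chosen with earlier results of these data known. Named were all members, the listed genes of the clock past the threshold, and those answering Per1 stimuli. A further 2 listed genes were left out of the lists and are not reported here. Alternatives were DESeq2 1.42.0, its size factors, library totals, no filter, a robust fit, only the groups compared, each library left out, and a replicate block. Numbers in the titles did not pair samples (r of deviations from group means -0.20 to 0.08 for same-numbered libraries). Numbers in the descriptions gave r = 0.36, 0.14 and 0.16 for the 3 Control and Reloading pairs, all above 0.1. For that reason this block is given beside a result of Reloading against Control that it changes. The pair at 0.36 was Control 2 with Reloading 1, the 2 libraries with keratins. Control 1, whose number no Reloading library has, reached 0.12 with Reloading 3 and 0.11 with Reloading 2. These values therefore do not show that the samples were paired. Same-numbered libraries of the other comparisons reached at most 0.0752. Leaving out both libraries with keratins was chosen after seeing the data.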

Additional observations from a re-analysis of the deposited data

Results flagged for a closer look

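Of 40 values looked at in the 4 Control libraries, 3 had a single library far from the other 3 by Dixon's ratio at 95%, where chance flags about 1 in 20. Nfil3, the D-box repressor, had 16.5 CPM in Control 4 against 10.4 to 10.9 in the others. Wee1 had 4.57 CPM in Control 3 against 5.72 to 5.75. Zbtb16, a glucocorticoid responsive gene, had 89.1 CPM in Control 4 against 42.6 to 46.4. None of the 9 members was among these.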

How the results depend on the processing

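Of 486 values of the 9 members under 18 alternatives, 435 kept direction and side of the threshold, 28 lost the call, 13 gained one and 10 changed sign. For the other named genes, only the 40 results past the threshold in the edgeR fit with TMM and the filter were followed. For the members all 27 were followed, called or not. Of the 720 values of the other named genes, 619 kept both, the rest lost the call and 0 changed sign. This selection left no call to be gained and held no difference short of the threshold. These figures therefore do not compare with those of the members. Nr1d2 in both comparisons with Reloading and Per1 in Reloading against Control kept their calls under all 18.

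Leaving out each library in turn, Unloading against Control gave 121 (without Unloading 1) to 1518 genes, with 949 without Control 3, and 0 to 4 members. Reloading against Unloading gave 3934 to 5654 genes and 3 to 5 members, with 3 without Reloading 2 or Unloading 1. Reloading against Control gave 5267 to 6506 genes and 3 to 5 members, with 3 without Reloading 2 or Reloading 3. The cause was not tested, beyond the smaller number of libraries.

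Among the members, some differences near 0 changed sign, none of them called in the report. With library totals these were Nr1d1 in Reloading against Unloading (0.0531) and against Control (0.18) and Clock in Reloading against Control (0.0220). Leaving out each library, Nr1d1 in Reloading against Control ran from -0.13 to 0.0545 (above 0 without Reloading 3). For Unloading against Control, Arntl ran from -0.20 to 0.13 (above 0 without Control 3 or Unloading 2) and Nr1d2 from -0.0063 to 0.0613 (below 0 without Control 2 or Control 3), and Nr1d2 was at -0.0027 without both libraries with keratins. Per2 in Reloading against Unloading turned to -0.0029 with the replicate block by descriptions.

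The replicate block by titles, whose numbers do not pair samples, gave 5108, 1042 and 5705 genes for Reloading against Unloading, Unloading against Control and Reloading against Control, with 5, 3 and 4 members. The block by descriptions gave 4902, 1479 and 6632 genes, with 5, 3 and 6 members, Per3 in Reloading against Control being the only member call it added and none being lost. Among the other named genes it lost no call in Reloading against Control. In the comparisons with Unloading, whose libraries its numbers do not pair, Cry2 (-0.21 for Reloading against Unloading and 0.23 for Unloading against Control, adjusted p 0.126 and 0.127), Timeless (0.57 and -0.87, adjusted p 0.145 and 0.0519), Hlf (-0.31, adjusted p 0.0735) and Wee1 (0.48, adjusted p 0.0562) lost theirs. Depth limits Arntl most, with 56 to 125 read pairs per library.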

Other observations

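The Control library with the highest or lowest value was often the same for the clock genes. Control 4 held the highest Control value for Clock, Per1, Per2, Per3 and Ciart and the lowest for Arntl, Cry1 and Nr1d1, 8 of 9 members, where 49.1% of all tested genes had an extreme in that library. Control 1, Control 2 and Control 3 held an extreme for 3, 4 and 3 members. This is a count over genes of a shared loop in 1 mouse, with no test.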
